A study of Mus musculus with 23 samples.

Results

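The array used here carries, beside probes for genes, 16194 probes that were named by their design only for a genomic interval and a strand. They make up 4610 interval names with strand on 3543 distinct intervals, with a median of 3 and at most 10 probes per name. The members described here are the 9855 interval probes (60.9%) chosen by detection, that is, those that the scanner software marked as well above background on every array of at least 1 of the 8 groups. They lie on 3043 intervals. Among the other non-control probes, 29333 (74.3%) passed the same rule. The intervals had a median length of 7304 bases and ranged from 62 to 7128487 bases. All coordinates are those of the array design (build mm9), and F and R are its strand letters. The files give no gene, exon or sequence for an interval and 0 names carry the prefix lincRNA, so that the intervals were not checked against an annotation and are called by their coordinates.

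Long intergenic noncoding RNAs are transcribed between protein-coding genes, are often weakly expressed and often restricted to few cell types. Some act on genes close to their own site of transcription, as Xist does on the inactive X chromosome and Airn does at the imprinted Igf2r cluster, while others are known only as transcripts. RUNX1 is the transcription factor that drives the transition from endothelium to blood, and RUNX1-ETO is the fusion of its DNA-binding part with the corepressor ETO that arises in acute myeloid leukaemia. Intergenic transcripts are of interest in such cells because many arise near enhancers and respond when the factors bound there change.

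RNA came from cells that differentiated in culture from an embryonic stem cell line labelled C57BL/6, derived from picked colonies, in which human RUNX1-ETO with an HA tag is expressed from a tetracycline-responsive promoter when doxycycline (Dox) is given, on a background with intact RUNX1. All 8 groups carried the transgene, and no array of Dox-treated cells without it was analysed here, so that Dox and RUNX1-ETO cannot be told apart. Haemogenic endothelium (HE, KIT+ Tie2+ CD41-), HE2 cells (KIT+ Tie2+ CD41+) and CD41+KIT+Tie2- progenitors were sorted without Dox or after Dox (0.1 μg/ml, begun on day 1 of the blast culture), and myeloid progenitors were expanded from the culture and given Dox for 12 h or none. There were 3 arrays per group for HE, HE2 and myeloid progenitors, and 2 arrays per group for progenitors. In bulk samples, fewer cells that make an RNA and less of it per cell cannot be told apart.

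The arrays differed in how many interval probes they detected, from 28.4 to 71.6%, against 55.7 to 80.5% of the other probes. The lowest share was on induced progenitor array 2 and the highest on uninduced HE array 3. HE and HE2 arrays were spread over slides 1 and 2, uninduced progenitor arrays 1 and 2 lay on slides 1 and 2, and the myeloid progenitor arrays and induced progenitor array 2 lay on slide 3. An additional array of uninduced progenitors, labelled a technical replicate, lay on slide 3 and was left out of the groups. All 4 endothelial markers (Tek, Kdr, Cdh5 and Pecam1) were above background on every array of each group, with a mean log2 intensity of 12.32 to 14.2 on uninduced HE arrays and of 10.18 to 10.69 on uninduced myeloid progenitor arrays. The myeloid list had a mean of 7.54 to 8.41 on uninduced HE arrays and of 9.88 to 10.32 on those of uninduced progenitors, and 3 of its 4 genes were above background on every uninduced myeloid progenitor array, where its mean was 8.52 to 9.11. The lists also moved with Dox at some stages: the endothelial mean was 12.5 to 13.51 in induced HE2 (11.44 to 12.53 without Dox), 11.92 to 12.26 in induced progenitors (10.91 to 10.99) and 12.13 to 12.5 in induced myeloid progenitors, and the myeloid mean was 8.63 to 8.99 in induced progenitors. On induced HE arrays the endothelial mean was 12.55 to 13.85, within the range without Dox. The haematopoietic list (Itga2b, Kit, Ptprc and Spn) had 8.27 to 8.67 in induced HE (8.76 to 9.26 without Dox) and 8.77 to 9.32 in induced HE2 (9.72 to 10.23). It had 10.44 to 10.66 in induced progenitors (11.11 to 11.19) and overlapped in myeloid progenitors, at 10.57 to 11.07 (10.91 to 11.66). The cardiac list (Tnnt2, Myl7 and Actc1) had 7.46 to 8.04 in induced HE2 (8.16 to 8.89) and 7.69 to 8.02 in induced myeloid progenitors (6.64 to 6.93). The 2 mesenchymal markers went opposite ways. The mean of Col1a1 was 9.61 in uninduced and 6.35 in induced HE2, while that of Col3a1 was 7.36 and 7.76. In HE, Col1a1 had 9.75 without and 7.67 with Dox, and Col3a1 had 8.13 and 9.97. The part of these shifts in the changes of members was not tested. Runx1t1, the mouse gene of ETO, had a change with Dox of 1.24 ± 0.338 (SE, log2) at the HE stage, 2.08 ± 0.338 at HE2, 3.96 ± 0.414 for progenitors and 2.06 ± 0.338 for myeloid progenitors, and passed the threshold in the 3 stages other than HE. Its uninduced means were 10.81, 9.88, 7.71 and 10 in the same order. Whether its probe reads the human transgene, the mouse gene or both was not tested, so the missing call in HE is not read as absent induction.

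**Figure D1:**
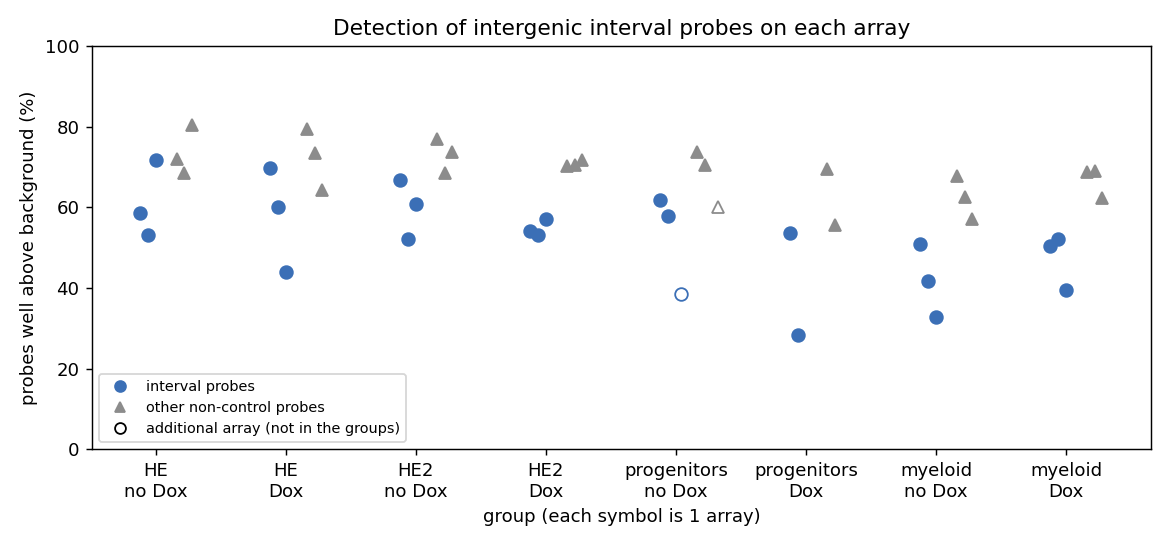
Share of probes marked well above background (%) on each array, by group. Filled circles are the 16194 interval probes and triangles the other non-control probes. Open symbols are the additional array of uninduced progenitors. Interval probes lay below the other probes on each array, at 28.4 to 71.6% against 55.7 to 80.5%.

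Detection chose the members and is given as a description. Without Dox, 7877 members (79.9%) were detected in HE, 7888 (80%) in HE2, 8314 (84.4%) among progenitors and 4906 (49.8%) among myeloid progenitors. With Dox the numbers were 6800, 7238, 4386 and 5980. Detection of interval probes was thus lowest in induced progenitors and in uninduced myeloid progenitors, where 1 array each had 28.4% and 32.9% of the interval probes above background. Members were less often detected throughout than other probes: 3711 members (37.7%) were detected in all 8 groups, against 67.6% of the other probes that passed the rule. The 1148 members detected in a single group included 522 detected in uninduced progenitors alone, the group with 2 arrays. These 1148 had a median log2 intensity of 5.76 in their highest group, and the 2389 interval probes that fell short of the rule by 1 array had 5.49. The filter on dim probes used for testing, a log2 intensity of 6.5 on at least 1 array, kept 7315 members (74.2%) and left out 2540. It kept 89% of the other probes that passed the rule.

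At every stage, members were called less often with Dox than the probes of the array as a whole, and more of them rose than fell. Calls were made at an unadjusted P of 0.001 or less and a change of at least 2-fold in limma. In HE, 53 of 7315 members rose (0.725%, against 2.82% of all probes tested) and 39 fell (0.533%, against 1.59%). In HE2, 106 rose (1.45%, against 3.29%) and 23 fell (0.314%, against 1.22%). In progenitors, 74 rose (1.01%, against 2.07%) and 16 fell (0.219%, against 0.452%), whereas 44 rose and 2 fell under scaling to the 75th percentile. In myeloid progenitors, 75 rose (1.03%, against 3.11%) and 32 fell (0.437%, against 0.786%). In all, 302 members of 177 interval names (4.13%) were called in at least 1 stage, against 9.48% of all probes and 11.5% of the other probes that passed the detection rule.

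A member detected in few groups can pass the filter through the group where it is high, so the 3710 tested members detected in all 8 groups are set beside the others. Of these, 1.02% rose in HE, 2.02% in HE2, 1.37% at the progenitor stage and 1.54% at the myeloid progenitor stage. Other probes detected in all 8 groups rose in 3.03%, 3.56%, 2.32% and 3.65%. The members that fell made up 0.728%, 0.377%, 0.27% and 0.512% of this set, against 1.99%, 1.51%, 0.449% and 0.65% of the other probes. Members thus stayed below the other probes in each of these 8 comparisons of shares, which were not tested. The median change of all tested members with Dox (log2) was -0.014 for HE, -0.059 for HE2, -0.163 for progenitors and -0.074 for myeloid progenitors, and that of all probes tested was -0.02, -0.032, -0.046 and -0.053.

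**Figure D2:**
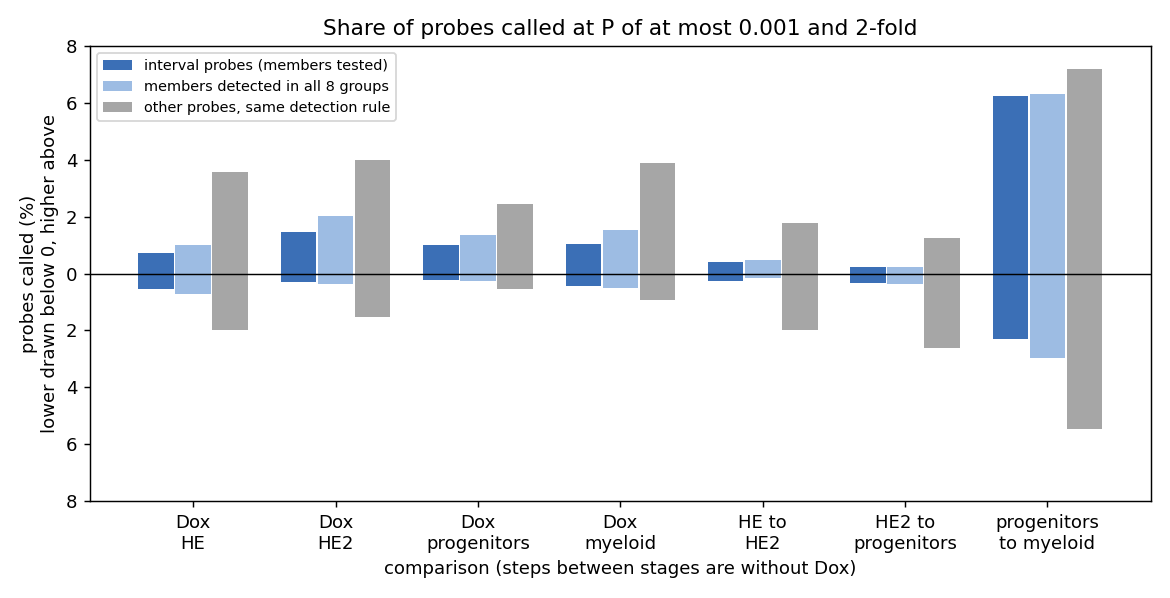
Share of probes called (%) in each comparison at P of at most 0.001 and 2-fold, with those that rose drawn above 0 and those that fell below. Dark bars are the tested members, light bars the members detected in all 8 groups and grey bars other probes that passed the same detection rule. The dark bars are shorter than the grey bars in each comparison, and the rises from progenitors to myeloid progenitors made up 6.25% of the members against 7.18% of the other probes.

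The counts in progenitors rested on single arrays. Without uninduced progenitor array 1, 28 members rose and 206 fell; without array 2, 33 rose and 5 fell; without induced progenitor array 1, 146 rose and 35 fell; and without induced array 2, 3 fell. With the slide as a block, 50 rose and 1 fell. In HE, 23 fell without uninduced array 2 and 20 without induced array 3, in HE2, 167 rose without induced array 2 and 14 fell without uninduced array 1, and in myeloid progenitors 18 fell without induced array 1.

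Of the members called higher, 143 (66.5%) were called in 1 stage, 53 in 2, 17 in 3 and 2 (0.93%) in all 4. Over all probes tested, 55.6% of those called higher were called in 1 stage and 5.77% in all 4. Of the members called lower, 69 (79.3%, against 70.6% over all probes) were called in 1 stage, 13 in 2, 5 in 3 and 0 in all 4. These shares were not tested, and a stage without a call is not a stage without a change. The number of members called in opposite directions at different stages was 0. The same count over all probes was not made, so this is not read as a trait of members.

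One of the members called in all 4 stages was at chr17:26911397-26917047 (F). It had log2 intensities of 8.63, 8.76 and 9.32 on uninduced HE arrays and of 10.8, 10.33 and 10.28 on induced ones, and rose by 1.56 ± 0.239 (2.96-fold, adjusted P = 0.000293). The groups did not overlap. In HE2 it had 8.72, 8.53 and 9.26 without Dox and 10.64, 10.24 and 10.38 with Dox, a rise of 1.58 (adjusted P = 0.000301). In progenitors it had 8.35 and 8.89 without Dox and 9.79 and 10.16 with Dox, a rise of 1.36 (adjusted P = 0.0141), and in myeloid progenitors 9.54, 9.82 and 9.38 against 10.84, 10.62 and 10.96, a rise of 1.23 (adjusted P = 0.00278). In each stage the induced arrays lay above the uninduced ones. The interval holds 10 members, and all 10 rose in HE (by 1.05 to 1.62) and in HE2 (by 1.04 to 1.73), 8 rose in myeloid progenitors and 1 in progenitors, where the 10 changed by 0.08 to 1.52. The call in progenitors was lost without uninduced array 1 (1.09), without induced array 2 (1.17) and with the slide as a block (1.26). Within slide 2 the rise was 0.98 in HE and 1.05 in HE2, against 2.1 and 2.02 within slide 1.

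The member at chr10:92238941-92283837 (R), the single probe of its interval, was the other one called in all 4 stages. It had 5.54, 5.49 and 6.27 on uninduced and 7.36, 7.11 and 6.81 on induced HE arrays. In HE2 it had 5.57, 5.71 and 6.39 without and 7.59, 7.66 and 7.84 with Dox, and in progenitors 5.66 and 6.02 against 7.11 and 8.4. In myeloid progenitors it had 6.52, 6.23 and 6.4 against 7.7, 7.41 and 7.67. No stage showed an overlap between induced and uninduced arrays. The rises were 1.33 ± 0.294 in HE, 1.8 ± 0.294 in HE2, 1.92 ± 0.36 at the progenitor stage and 1.21 ± 0.294 at the myeloid progenitor stage (adjusted P = 0.00685, 0.000594, 0.00528 and 0.0148). The call in HE was lost without uninduced array 1 (1.21), uninduced array 2 (1.19), induced array 1 (1.19) or induced array 2 (1.32), that in myeloid progenitors was lost without any 1 of the 6 arrays (1.13 to 1.3), and that in progenitors without uninduced array 1 (1.74) or induced array 2 (1.27). With an offset of 50 in the background correction, the rises in HE and myeloid progenitors were 0.94 and 0.95, below 2-fold, and within slide 2 that in HE was 0.69.

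**Figure D3:**
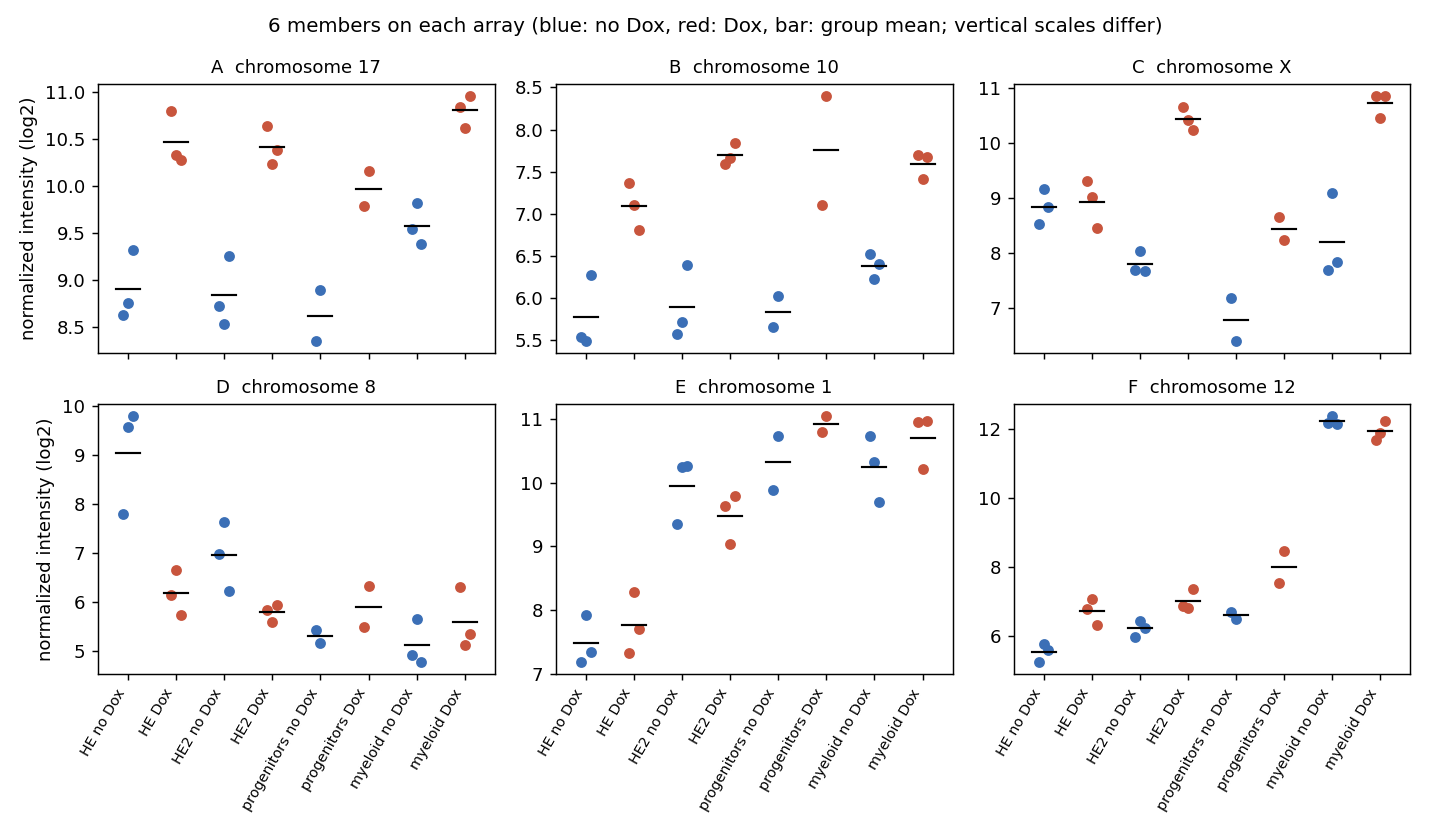
Normalized log2 intensity of 6 members on each array, with 1 point per array, a bar at the group mean, blue for no Dox and red for Dox, and a vertical scale of its own in each panel. A is chr17:26911397-26917047 (F), B chr10:92238941-92283837 (R), C chrX:50400250-50410825 (R), D chr8:67552315-67561235 (R), E chr1:69531191-69570566 (R) and F chr12:32781477-32808567 (R). In A and B the induced arrays lay above the uninduced arrays of the same stage in all 4 stages.

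Another probe of chr17:26911397-26917047 (F) was among the largest rises named in HE. It had 8.57, 9.01 and 8.99 on uninduced and 10.32, 10.46 and 10.64 on induced HE arrays and rose by 1.62 ± 0.237 (adjusted P = 0.000189), with 1.53 within slide 1 and 1.55 within slide 2. It also rose by 1.57 in HE2 and by 1.2 in myeloid progenitors, and its change of 0.71 in progenitors was not called.

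The member at chr8:67552315-67561235 (R) fell most in HE. It had 7.79, 9.57 and 9.79 on uninduced and 6.15, 6.65 and 5.74 on induced HE arrays, and fell by 2.87 ± 0.469 (7.3-fold, adjusted P = 0.000536). Each uninduced HE array lay above all arrays of the other groups for this probe, which is the only one of its interval. It was detected in 3 of the 8 groups, uninduced HE among them. Detection where it was high thus helped to make it a member, and the fall is not independent of that choice.

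At chr15:61984389-62102500 (R) the uninduced arrays had 7.62, 6.57 and 9.01 and the induced ones 6.01, 5.27 and 5.71, a fall by 2.07 ± 0.452 (adjusted P = 0.00617) that was called at 3 of 6 tested probes of the interval. The change was -1.43 on the log2 scale without uninduced HE array 3 and -1.87 without induced array 2, and in neither was it called. Within slide 1 it was -1.08 and within slide 2 -3.52. This member too was detected in 3 of the 8 groups, uninduced HE among them, so its fall is not independent of its choice. At chr4:116791819-116798263 (R) the arrays had 10.2, 10.64 and 9.85 without and 8.61, 9.03 and 7.58 with Dox. Both tested probes of this interval fell, by 1.64 and by 1.83 (adjusted P of the second = 0.000318). The same member fell by 1.14 in HE2 and by 1.31 in myeloid progenitors, both of which were called, and its change of -0.74 in progenitors was not.

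The member at chrX:6982891-7008528 (R) fell in HE and in HE2. It had 9.92, 9.73 and 9.65 without and 8.07, 8.62 and 7.99 with Dox in HE, and 10.21, 9.93 and 10.19 against 8.64, 8.87 and 8.4 in HE2. It fell by 1.54 ± 0.212 and by 1.47 ± 0.212 (adjusted P = 0.000107 and 0.000186). The second tested probe of the interval changed by -0.7 and -0.67 and was not called. The changes in progenitors (-0.71) and myeloid progenitors (-0.97) were not called either.

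Of the rises in HE, that at chr7:111526943-111545093 (R) remained called under every alternative. Its single probe had 6.46, 6.05 and 6.62 on uninduced and 8.09, 8.07 and 8.02 on induced HE arrays, a rise of 1.69 ± 0.211 (adjusted P = 4.25e-05). It rose by 1.33 in HE2, where it had 6.78, 6.59 and 7.18 against 8.24, 7.79 and 8.51, and changed by -0.29 in progenitors and 0.53 in myeloid progenitors without a call. The member at chr3:96074625-96086375 (F) had 5.6, 5.86 and 5.45 on uninduced and 7.54, 7.59 and 7.17 on induced HE arrays and rose by 1.8 ± 0.262 (adjusted P = 0.000175), together with 1 other of its 5 tested probes, while the 5 changed by 0.61 to 1.8.

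The rise named last in HE, at chr14:62294849-62301165 (R), rested on 1 array. The uninduced HE arrays had 7.95, 8.47 and 4.88 and the induced ones 8.87, 9.8 and 9.85, and the member rose by 2.4 ± 0.609 (adjusted P = 0.0174). Without uninduced array 3 the rise was 1.29 and was not called. It was not called without induced array 2 (2.25) or induced array 3 (2.23) either. Within slide 1 it was 0.65 and within slide 2, which holds that array, 4.94.

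In HE2, the member with the largest rise was at chrX:50400250-50410825 (R). It had 7.68, 8.04 and 7.66 on uninduced and 10.66, 10.42 and 10.23 on induced HE2 arrays, a rise of 2.65 ± 0.324 (6.26-fold, adjusted P = 4.87e-05). In HE the arrays overlapped, with 8.52, 9.16 and 8.83 without and 9.3, 9.02 and 8.45 with Dox. In myeloid progenitors it had 7.68, 9.09 and 7.83 against 10.86, 10.46 and 10.86, a rise of 2.53 ± 0.324 (adjusted P = 5.23e-05), and in progenitors 7.17 and 6.39 against 8.65 and 8.23, a rise of 1.66. Of the 6 tested probes of this interval and strand, 3 rose in HE2 and 5 in myeloid progenitors, and their changes ran from -0.14 to 2.65 and from 0.19 to 2.53. Both rises remained called under every alternative.

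The 3 tested probes at chr3:145313275-145315057 (F) rose in HE2 by 1.81 to 1.96. The named one had 6.47, 6.68 and 6.42 without and 8.24, 8.55 and 8.66 with Dox (adjusted P = 0.00019). In HE it had 6.92, 8.06 and 7.43 against 7.38, 7.56 and 7.17, with overlapping groups. At chr10:6497224-6497863 (R) the member had 6.13, 6.59 and 6.4 on uninduced and 8.68, 7.18 and 9.1 on induced HE2 arrays and rose by 1.95 ± 0.327 (adjusted P = 0.000761), as did 1 other of 3 probes.

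At chr12:85210777-85262127 (R), rises of the same member were called in HE2 and in myeloid progenitors. It had 9.25, 8.44 and 9.14 against 10.86, 10.62 and 11.19 in HE2, a rise of 1.95 ± 0.347 (adjusted P = 0.00127), and 9.1, 9.6 and 9.06 against 11.15, 11.09 and 10.96 in myeloid progenitors, a rise of 1.81 ± 0.347 (adjusted P = 0.00237). Neither pair of groups overlapped. It changed by 0.95 in HE and by 1.45 in progenitors without a call. Of the 5 tested probes of the interval, 2 were called at each of the stages, and the others ranged down to -0.36 in HE2 and 0 in myeloid progenitors.

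Falls in HE2 were smaller. Beside chrX:6982891-7008528 (R), the member at chr6:100162756-100178531 (F) had 7.93, 8.48 and 8.32 without and 6.85, 6.8 and 6.89 with Dox and fell by 1.4 ± 0.277 (adjusted P = 0.00285). It also fell in progenitors (by 1.37) and in myeloid progenitors (by 1.1), and its change of -0.24 in HE was not called. At chr13:19611679-19620954 (R) the arrays had 6.93, 7.42 and 7.04 without and 6.03, 5.84 and 5.38 with Dox, a fall by 1.39 ± 0.219 (adjusted P = 0.000468), and the same member fell by 1.11 in HE and by 1.32 in myeloid progenitors. The fall at chr1:133839368-133839762 (F) by 1.79 ± 0.434 (adjusted P = 0.0125) came with 8.64, 9.22 and 9.05 on uninduced and 8.05, 7.75 and 5.74 on induced arrays, and without induced array 3 it was 1.07 on the log2 scale and not called. Nor was it called without uninduced array 1 (-1.95), 2 (-1.67) or 3 (-1.75), and within slide 1 it was -0.88.

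In progenitors, with 2 arrays per group, the rises were called at more probes of an interval than the falls. All 3 probes at chr19:5801802-5802597 (R) rose, by 1.8 to 2.22. The named one had 12.93 and 12.58 on uninduced and 15.32 and 14.63 on induced progenitor arrays (adjusted P = 0.00923). The additional uninduced array had 13.87, and within slide 3 the rise was 0.76. The rise was not called without uninduced array 2 (2.04) or induced array 1 (1.87). The member also rose by 1.84 in HE2.

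All 3 probes at chr8:26347473-26348052 (R) rose in progenitors, by 1.94 to 2.12. The named one had 5.69 and 5.67 without and 8.2 and 7.41 with Dox (adjusted P = 0.00255), and the additional uninduced array had 5.77, not above background. It rose by 1.35 in HE2 as well. At chr10:18104309-18104881 (F) the values were 5.34 and 4.64 against 7.13 and 6.97, a rise of 2.06 ± 0.421 (adjusted P = 0.00995) that was called at 1 of 3 tested probes and was lost without uninduced array 2 (1.7) or induced array 1 (1.98).

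The member at chr12:110845020-110850870 (F) was detected in induced progenitors alone. It had 4.61 and 4.85, not well above background, on uninduced and 7.07 and 6.8 on induced progenitor arrays, at least 3.93-fold higher with Dox. The rule took it up through the group where it was high, so the difference is a description and carries no P. This bound sets the mean of the bright group against the lowest signal well above background on each array of the dim group. On the arrays of the 6 groups of other stages the values lay between 4.48 and 5.43, and 1 of these arrays was above background. The other tested probe of the same interval changed by -0.63 in progenitors and was not called.

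The falls named in progenitors were each called at 1 probe. The member at chr9:24292762-24307658 (F) had 8.73 and 7.99 without and 6.85 and 6.61 with Dox and fell by 1.63 ± 0.346 (adjusted P = 0.0129), that at chr19:9060613-9060851 (F) fell by 1.69 ± 0.395 (adjusted P = 0.0228), that at chr9:66981366-67061725 (F) by 1.55 ± 0.358 (adjusted P = 0.0208) and that at chr8:41934312-41945487 (R) by 1.53 ± 0.385 (adjusted P = 0.035). Each of these calls was lost with the slide as a block (changes of -1.6, -1.44, -1.57 and -1.34). Within slide 3, where the uninduced array is the additional one, the changes in the same order were -0.52, -0.44, -1.72 and -0.52, and that array had 7.14, 9.72, 8.7 and 8.8. The calls at chr19:9060613-9060851 (F) and chr8:41934312-41945487 (R) were lost without any 1 of the 4 arrays (-1.83 to -1.55 and -1.84 to -1.22). That at chr9:24292762-24307658 (F) was lost without uninduced array 1 (-1.25) or induced array 2 (-1.51), and that at chr9:66981366-67061725 (F) without uninduced array 2 (-0.99), induced array 1 (-1.37) or induced array 2 (-1.74).

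In myeloid progenitors, after 12 h of Dox, the rises at chrX:50400250-50410825 (R) and chr12:85210777-85262127 (R) are given above. All 3 probes at chr9:13349094-13352732 (F) rose, by 1.81 to 2.01. The named one had 7.74, 7.82 and 7.51 without and 9.38, 9.99 and 9.74 with Dox (adjusted P = 0.00173). At the other stages it changed by 1.31 (HE), 1.43 (HE2) and 1.51 (progenitors) without passing the threshold. The member at chr13:28947034-28949166 (R) had 5.55, 6.68 and 5.82 on uninduced and 7.24, 8.09 and 8.22 on induced arrays, a rise of 1.83 ± 0.303 (adjusted P = 0.00064). It was detected in 2 of the 8 groups, among them the induced one. Detection where it was high thus helped to make it a member, and the rise is not independent of that choice.

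The largest fall in myeloid progenitors was at chr17:12941161-12944859, an interval without a strand letter. The member had 10.24, 9.88 and 9.98 without and 7.75, 8.31 and 8.25 with Dox, a fall by 1.93 ± 0.428 (adjusted P = 0.00783), and all 5 tested probes fell, by 1.71 to 1.93. The call was lost without uninduced array 1 (-1.83), uninduced array 3 (-1.95) or induced array 1 (-1.75). All 3 probes at chr1:135956616-135957485 (R) fell, by 1.31 to 1.58, and the named one had 7.9, 7.49 and 7.84 against 6.09, 6.48 and 5.91 (adjusted P = 0.000219).

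The member at chr2:179984199-179984669 (R) had 12.93, 13.52 and 14.1 on uninduced and 11.27, 12.1 and 12.19 on induced myeloid progenitor arrays. It fell by 1.66 ± 0.369 (adjusted P = 0.00788), while the 3 probes of the interval changed by -1.66 to 0.02. The call was lost without uninduced array 2 (-1.66), uninduced array 3 (-1.37) or induced array 1 (-1.37). At chr6:134879009-134880130 (F) the values were 9.45, 8.5 and 8.67 against 7.05, 7.61 and 7.53, a fall by 1.48 ± 0.355 (adjusted P = 0.0137) that was lost without uninduced array 1 (-1.19) or 3 (-1.58) or without any of the induced arrays (-1.59 to -1.31).

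**Figure D4:**
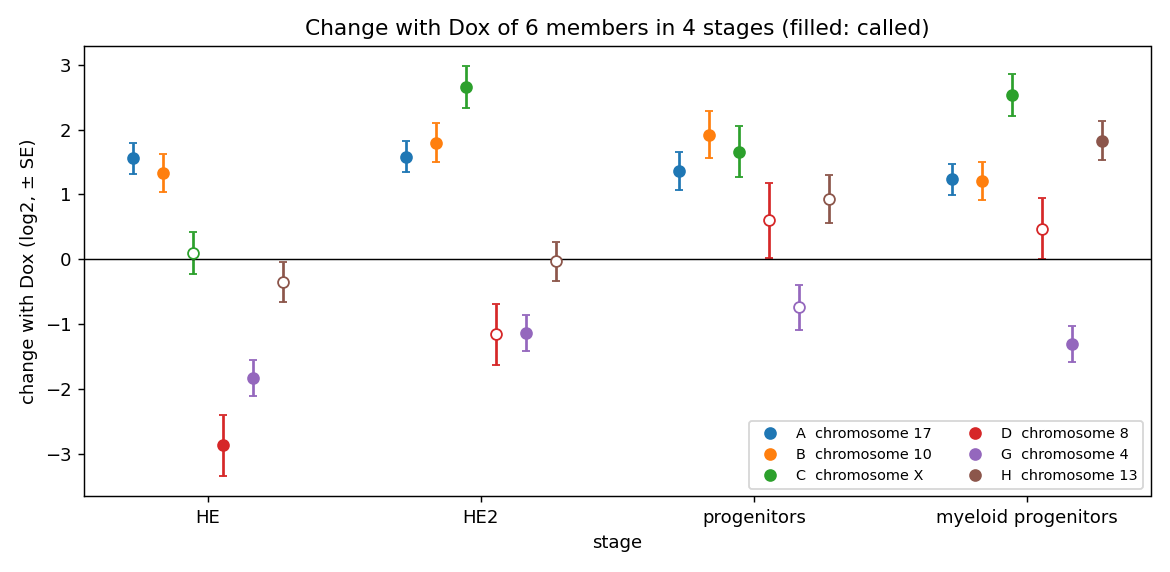
Change with Dox (log2, points, with bars of 1 SE from the fit) of 6 members in 4 stages. Filled points were called and open points were not. A is chr17:26911397-26917047 (F), B chr10:92238941-92283837 (R), C chrX:50400250-50410825 (R), D chr8:67552315-67561235 (R), G chr4:116791819-116798263 (R) and H chr13:28947034-28949166 (R). A and B lie above 0 in each stage, C is near 0 in HE (0.09) and between 1.66 and 2.65 in the others, and D fell by 2.87 in HE.

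Few members differed in their response between stages by the interaction term itself. Between HE2 and HE, 9 members responded higher and 1 lower in HE2 (0.123% and 0.0137%, against 0.34% and 0.343% of all probes), with adjusted P of up to 0.134 among the 9. Between myeloid progenitors and HE, 27 responded higher and 14 lower in myeloid progenitors (0.369% and 0.191%, against 1.69% and 0.987%). These stages also differed in Dox schedule, culture and slide, which cannot be told apart from the stage. The count of 10 between HE2 and HE was 26 without induced HE2 array 2, 23 without uninduced HE array 1, 20 without induced HE array 1, 6 without uninduced HE array 2 and 5 without induced HE array 3. That of 41 was 27 without uninduced myeloid progenitor array 3 and 25 without induced array 1.

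Without Dox, few members changed from HE to HE2 or from HE2 to progenitors, and many from progenitors to myeloid progenitors. From HE to HE2, 29 members rose (0.396%, against 1.4% of all probes) and 18 fell (0.246%, against 1.54%). From HE2 to progenitors, 16 rose (0.219%, against 0.99%) and 25 fell (0.342%, against 2.01%). From progenitors to myeloid progenitors, 457 rose (6.25%, against 6.68%) and 169 fell (2.31%, against 4.56%), so that the share of members that rose was close to that of the array as a whole. The erythroid markers moved with this step, as the mean of Hbb-bh1 and Hba-x, 2 embryonic globin genes, was 15.22 to 15.4 in uninduced progenitors and 18.37 to 18.6 in myeloid progenitors, while the myeloid mean went from 9.88 to 10.32 down to 8.52 to 9.11, and their part in the changes was not tested. Neighbouring steps share the arrays of the stage between them, and each step shares its uninduced arrays with the comparisons with Dox at its stages.

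The last step set the myeloid progenitor arrays, all on slide 3, against uninduced progenitor arrays on slides 1 and 2. With the slide as a block, 107 members rose and 46 fell. Against the additional uninduced array on slide 3, 167 rose and 71 fell, and with that array as replicate 3 and the slide as a block, 294 rose and 81 fell. Without uninduced progenitor array 1, 282 rose, without array 2, 299 rose, and without uninduced myeloid progenitor array 2, 110 fell. For the step from HE2 to progenitors, the count of 16 rises was 153 without progenitor array 1, 6 without array 2, and 7 without HE2 array 1 or 2, and that of 25 falls was 10 without progenitor array 2, 16 without HE2 array 1 and 13 without HE2 array 2. For the step from HE to HE2, 5 fell without HE2 array 3.

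From HE to HE2, the member at chrX:98989930-98994344 (F) rose by 3.13 ± 0.353 (8.75-fold, adjusted P = 3.23e-05). It had 8.85, 7.25 and 8.05 in HE, 11.18, 10.76 and 11.6 in HE2, 10.98 and 11.88 in progenitors and 8.38, 7.76 and 8.24 in myeloid progenitors. It was thus high in HE2 and progenitors and fell again by 3.3 ± 0.395 from progenitors to myeloid progenitors (adjusted P = 1.1e-05), with a change of -3.28 within slide 3. Both probes of the interval were called in both steps. Its changes with Dox, from -1.17 in HE2 to 0.15 in myeloid progenitors, were not called.

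The intervals chr1:69531191-69570566 (R) and chr1:69555180-69555559 (R), of which the second lies inside the first, rose together from HE to HE2. The first had 7.19, 7.93 and 7.34 in HE and 9.35, 10.25 and 10.26 in HE2, a rise of 2.47 ± 0.352 (adjusted P = 0.000347), and the second rose by 2.34 ± 0.325 (adjusted P = 0.000258). All 4 and 2 tested probes were called. The levels stayed at 9.89 and 10.74 in progenitors and at 10.73, 10.33 and 9.7 in myeloid progenitors.

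From HE to HE2, the member at chr8:67552315-67561235 (R) fell by 2.1 ± 0.469 (adjusted P = 0.0121), to 6.98, 7.64 and 6.22 in HE2, and its HE arrays are those of the fall with Dox. It was not called without HE array 2 (-1.84) or 3 (-1.73) or HE2 array 1 (-2.12) or 3 (-1.74), and within slides 1 and 2 it was -1.37 and -3.57. The member at chr7:106529142-106529752 (R) fell in 2 steps, with 9.73, 10.94 and 10.29 in HE, 8.32, 9.33 and 7.73 in HE2 and 5.51 and 5.39 in progenitors. It fell by 1.86 ± 0.386 and then fell by 3.01 ± 0.432 (adjusted P = 0.00734 and 0.000232), the first of which was lost without HE array 2 (-1.55) or HE2 array 3 (-1.49), while the other tested probe of the interval changed by -0.41 and 0.02.

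Members on distal chromosome 12 were named for falls in each of these steps. At chr12:110842154-110883594 (F) the values were 9.63, 9.72 and 9.58 in HE, 8.65, 8.33 and 8.05 in HE2, 7.49 and 8.09 in progenitors and 7.06, 7.09 and 6.94 in myeloid progenitors. It fell by 1.3 ± 0.267 from HE to HE2 (adjusted P = 0.00681), and the call was lost without HE2 array 3 (-1.16). At chr12:110894095-110899517 (F) the values were 10.14, 9.51 and 10.91 in HE, 9.43, 8.34 and 8.56 in HE2 and 6.58 and 5.76 in progenitors, a fall by 2.61 ± 0.428 from HE2 to progenitors (adjusted P = 0.000896). Of the 37 tested members between positions 110842149 and 110988678 of chromosome 12, 5 fell in this step, on 5 of 14 interval names, and 0 rose, against 2.01% of all probes that fell. The region was picked for its named falls and some of its names overlap, so these counts are a description. The 37 changed by -2.61 to 0.91, with a median of -0.4.

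From HE2 to progenitors, 4 of 5 tested probes at chr10:83181374-83249774 (F) fell as well. The named one had 9.65, 10.13 and 8.9 in HE2 and 7.58 and 7.49 in progenitors, a fall by 2.03 ± 0.291 (adjusted P = 0.000232), and it also fell with Dox by 1.44 in HE and by 1.38 in HE2. All 3 probes at chr8:82836971-82849309 (R) rose, and the named one had 5.31, 5.57 and 6.24 in HE2 and 7.58 and 8.01 in progenitors (2.09 ± 0.332, adjusted P = 0.000647). The rise at chr4:124206166-124334412 (R) by 3.04 ± 0.729 (adjusted P = 0.0208) and that at chr5:92548501-92566401 (F) by 2.03 ± 0.511 (adjusted P = 0.029) were each called at 1 probe. On the additional uninduced array these members had 8.23 and 7.4, against 10.36 and 10.64 and 9.06 and 8.97 on the progenitor arrays of the fit, and neither rise was called with that array as replicate 3 (2.29 and 1.49). That at chr4:124206166-124334412 (R) was not called without any 1 of the 5 arrays (2.89 to 3.18), and that at chr5:92548501-92566401 (F) not without HE2 array 2 (1.61) or 3 (2.15) or progenitor array 1 (1.99) or 2 (2.07).

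From progenitors to myeloid progenitors, the member at chr12:32781477-32808567 (R) rose most among those named. It had 6.7 and 6.49 in progenitors and 12.17, 12.36 and 12.15 in myeloid progenitors, a rise of 5.63 ± 0.28 (49.7-fold, adjusted P = 1.09e-09). All 3 probes of the interval rose, by 5.35 to 5.63, and within slide 3 the named one rose by 5.79. With Dox it rose by 1.18 in HE, where it had 5.26, 5.76 and 5.61 against 6.78, 7.06 and 6.32, and by 1.41 in progenitors, and in myeloid progenitors it changed by -0.3 without a call.

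The member at chr2:179984199-179984669 (R) rose by 4.82 ± 0.413 in this step, from 8.56 and 8.84 to the values given above (adjusted P = 2.71e-07), at 1 of 3 tested probes. All 3 probes at chr1:175653557-175671940 (R) rose, by 3.35 to 4.68. The named one was not well above background on progenitor arrays (4.74 and 5.17) and had 9.29, 10.51 and 9.13 on myeloid progenitor arrays, at least 24.1-fold higher. It was detected in both groups of myeloid progenitors and in no other group, and since this made it a member the difference is a description and carries no P. It was detected on no uninduced array of HE or HE2. Between positions 175653557 and 175717250 of chromosome 1, 15 of 16 tested members were called higher in this step, which for a member detected in myeloid progenitors alone is again a description.

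In the other direction, the member at chr3:86827945-86886695 (R) had 8.21 and 8.54 on progenitor arrays and 5.01, 5.22 and 4.94 on myeloid progenitor arrays, where it was not well above background. It was at least 8.82-fold lower there (adjusted P of the fall as measured = 1.39e-06), and 3.04 lower on the log2 scale within slide 3 as measured. Of the 3 tested probes of the interval 2 were called, and the 3 changed by -3.32 to -0.27. At chr6:145647711-145756861 (F) the fall by 3.59 ± 0.887 (adjusted P = 0.0064) set 13.17 and 13.37 against 9.57, 9.55 and 9.93. It was called at 1 of 8 tested probes of the interval, which changed by -3.59 to 1.2. The additional uninduced array had 10.4 there, within slide 3 the change was -0.72, and the call was lost without any 1 of the 5 arrays (-3.71 to -3.48).

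Probes of the same interval moved together on a strand and hardly across strands. In HE2, the changes with Dox of 2 probes of an interval and strand correlated with r = 0.55 over 1877 pairs, and those of 2 probes of opposite strands with r = 0.14 over 705 pairs. In HE the values were 0.49 and 0.12, in progenitors 0.5 and -0.07, and in myeloid progenitors 0.56 and 0.08. These correlations run across intervals on the same arrays, and intervals are no replicates. Of 705 intervals with tested members on both strands, the Dox response was called on 1 strand only for 21 (HE), 24 (HE2), 27 (progenitors) and 24 (myeloid progenitors), and on both strands for 0, 1, 2 and 0.

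**Figure D5:**
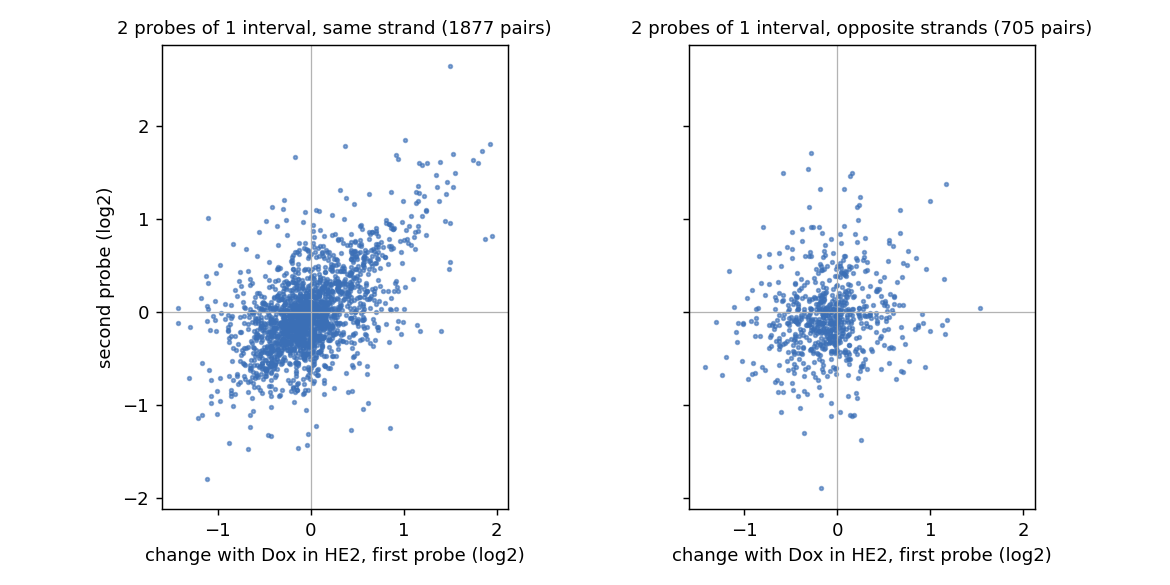
Change with Dox in HE2 (log2) of 1 probe of an interval against that of another, with 1 point per pair. On the left both probes lie on the same strand (1877 pairs, r = 0.55), on the right on opposite strands (705 pairs, r = 0.14), where the cloud shows little slope.

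Among called names with at least 2 tested members, those with at least 2 members called with Dox were 21 of 42 at the HE stage, 36 of 60 at HE2, 11 of 58 for progenitors and 25 of 51 for myeloid progenitors. All tested members of the name had the same sign in 35, 52, 48 and 42 of them. The share of names called at a single probe was thus highest in progenitors, where 16 falls lay on 16 names.

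Intervals closer than 50000 bases to each other on the design were joined into 1725 loci, of which 1442 held a tested member, to see whether neighbours moved together. The loci that held a member called with Dox numbered 41 at the HE stage, 54 at HE2, 60 for progenitors and 45 for myeloid progenitors, and 7, 11, 5 and 10 of them held called members on at least 2 interval names. No locus held members called in both directions in these 4 comparisons, against 14 of 317 loci from progenitors to myeloid progenitors. In that step 67 loci held at least 2 called names, many more than with Dox. The counts thus do not compare and do not show that neighbours moved together. Names that overlap share their target, so that joint calls at a locus are not independent.

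The locus at chr17:26911032-26917047 had 11 of 17 tested members higher with Dox in HE, 12 in HE2 and 10 in myeloid progenitors. At chr14:65430484-65437902, 4 of 28 tested members rose in HE, 5 in HE2 and 7 in myeloid progenitors, with medians over the 28 of 0.76, 0.85 and 1.15. At chr10:83181374-83249918, 8 of 16 fell in HE and 4 in HE2. The locus chr12:85196395-85262884 had 6 of 14 members higher in HE2 and in myeloid progenitors, on 3 of 4 names in each. At chr8:26343277-26352902, 4 of 16 members rose in HE2 and 5 in progenitors. The median over its members was 1.01 and 1.37.

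The locus at chr17:12941161-13033750 fell with Dox in myeloid progenitors, where 9 of 15 tested members were lower and the median over them was -1.12. From progenitors to myeloid progenitors without Dox, 9 of the 15 rose, with a median of 1.77, and these comparisons share the uninduced myeloid progenitor arrays. From HE to HE2, 4 of the 15 fell.

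By chromosome, 1.46 to 7.64% of the tested members were called with Dox in at least 1 stage. Chromosome 11 was lowest (5 of 343 members, on 5 names) and chromosome 10 highest (21 of 275, on 10 names). On chromosome 17 the 29 called members came from 10 names, and on chromosome 14 the 26 called members came from 15. These shares were not tested, and shares of all probes by chromosome were not set beside them.

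Neighbouring genes could not be placed beside the intervals, because the gene table used here is on another build than the array. In its place, each of the 45 named members (on 44 intervals) was compared over 22 arrays with the probes of genes that RefSeq puts on the same chromosome. A gene with r of at least 0.95 was found for 9 of the 44 intervals. The threshold was chosen after the values were seen, r is the highest of 498 to 1207 genes, and it mostly follows the differences between the groups, so it is a description of likeness and carries no P.

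The member at chr7:111526943-111545093 (R) was most like Trim30a (r = 0.99) and Trim30d (r = 0.98), interferon-inducible genes of the tripartite motif family that lie close to each other in RefSeq. With Dox in HE, Trim30a rose by 2.38 ± 0.209 (log2) and Trim30d by 1.85 ± 0.264, and the member by 1.69. The member at chr1:175653557-175671940 (R) had among its likest genes Ifi211 (r = 0.99) and Ifi209 (r = 0.98), interferon-inducible genes that are near neighbours in RefSeq. In the step from progenitors to myeloid progenitors Ifi211 rose by 3.64 and Ifi209 by 2.53.

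At chrX:6982891-7008528 (R) the likest gene was 2010204K13Rik (r = 0.99), which fell by 1.58 in HE and by 1.44 in HE2, against 1.54 and 1.47 for the member. The likest gene to chr1:69531191-69570566 (R) was Ikzf2 (r = 0.96), a transcription factor gene of the Ikaros family, which rose by 2.31 ± 0.297 from HE to HE2. The member at chr7:106529142-106529752 (R) was like Zim1 and Map6 (both r = 0.96), of which Zim1 is an imprinted zinc finger gene, and both fell from HE2 to progenitors, by 2.21 and 2.52.

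For the others with r of at least 0.95, the likest genes were Lpin3, 1500009L16Rik, Syt16 and Kirrel, at chr2:179984199-179984669 (R), chr10:83181374-83249774 (F), chr12:32781477-32808567 (R) and chr3:86827945-86886695 (R). On distal chromosome 12, below this threshold, the likest genes were Mirg and Meg3 (both r = 0.93), imprinted noncoding RNA genes of the Dlk1-Dio3 domain. Meg3 fell by 2.58 ± 0.512 from HE2 to progenitors, where chr12:110894095-110899517 (F) fell by 2.61, and Mirg fell by 1.26 from HE to HE2, where chr12:110842154-110883594 (F) fell by 1.3. At chr17:12941161-12944859, Tbp came first and Airn second (both r = 0.73), and Airn changed by -0.89 ± 0.185 with Dox in myeloid progenitors, below 2-fold. Mirg, Meg3 and Airn are known noncoding RNA genes picked from below the threshold. Likest genes of other intervals below it are not given, such as Pcm1 (r = 0.94) at chr8:41934312-41945487 (R).

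Known noncoding RNA genes are measured on the array through gene probes. Of 43 genes on a list, 21 were on the array by symbol and 18 were tested. In HE 1 of the 18 rose (against 2.82% of all probes tested), in myeloid progenitors 1 rose (against 3.11%), and in HE2 and progenitors 0 were called, counts too small to be read against these shares. Dleu2, the host of a microRNA pair deleted in lymphocytic leukaemia, rose by 1.25 ± 0.263 in HE (adjusted P = 0.00475), and Peg13, an imprinted noncoding RNA gene, rose by 1.61 ± 0.249 in myeloid progenitors (adjusted P = 0.000345). Malat1, a nuclear noncoding RNA, changed by 1.08 ± 0.431 in HE, 1.42 ± 0.431 in HE2 and 1.62 ± 0.528 in progenitors (adjusted P = 0.162, 0.0452 and 0.112), and Mir22hg, a microRNA host gene, by 1.63 ± 0.577 in HE2 and 1.4 ± 0.707 in progenitors (adjusted P = 0.0908 and 0.313), above 2-fold and without a call. The median change over the 18 genes was 0.13, 0.23, 0.23 and -0.05 in the 4 stages.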

How the data were processed

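RNA from 8 groups was hybridised to Agilent 1-colour arrays (23 arrays, 22 in the fit). The deposited scanner files hold spot intensity, extracted with Feature Extraction 10.7.1.1 per the labels and 10.7.3.1 per the file headers, with design coordinates on mm9. The deposited matrix of the series holds log2 values that the authors background-corrected and quantile-normalized, used here as an alternative. The number of arrays limits the precision.

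Following the methods of the study, median spot intensity was corrected with normexp (offset 16) on local background and quantile-normalized over 23 arrays. The 3671 control spots and outlier spots (100 to 346 per array) were left out, and 59305 spots were averaged to 55681 probes. Group means were fitted with limma 3.58.1 (R 4.3.3, 14 residual degrees of freedom) on 34966 probes, those that reached 6.5 (log2) on 1 array or more, all 8 groups sharing an estimate of the spread. A probe was called when its unadjusted P did not exceed 0.001 and its change reached 2-fold, and adjusted P are Benjamini-Hochberg values over all 34966 probes. The fit was tested on simulated data. Gene symbols matched 26582 probes to 20145 genes of RefSeq GRCm38.p6, used for names, chromosome and order only.

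Named members are the 4 largest rises and falls per comparison with Dox and the 3 largest per step without Dox, among called members with separate groups and every array of the higher group above background, plus each member called the same way in all 4 stages. Members, lists and tests were chosen with earlier results of these data known. A named member not detected in all 8 groups may have passed the rule through its higher group, so its change may not be independent of that choice. Intervals on chromosome 18 were counted and not named. One gene among the likest is not reported here. Alternatives were a fit with the replicate number or the slide as a block, other background corrections, scalings, filters and thresholds, the deposited values, the groups compared alone, the additional array and each array left out. Fits within each slide, and the additional array together with the slide block, were chosen after seeing the data. The labels give the replicate numbers but tie them to no shared culture, so P measure the spread between these samples, and 1 induced myeloid progenitor array is titled a biological and described as a technical replicate. Between HE and HE2 without Dox, deviations of same-numbered arrays correlated (r = 0.379, 0.78 and 0.656). Same-numbered arrays of these groups also lay on the same slide, so a shared culture and the slide cannot be told apart.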

Additional observations from a re-analysis of the deposited data

Results flagged for a closer look

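Each of the following members responded to Dox differently at 2 stages by the interaction term of the limma fit, and belongs to a named change of the report. The response at chrX:50400250-50410825 (R) was 2.56 ± 0.459 (SE, log2) higher in HE2 than in HE (adjusted P = 0.0262) and 2.44 ± 0.459 higher in myeloid progenitors than in HE (adjusted P = 0.00484). These comparisons share the HE arrays. At chr3:145313275-145315057 (F) it was 2.07 ± 0.399 higher in HE2 than in HE (adjusted P = 0.0416), and all 3 probes of the interval differed in this way, by 2 to 2.22.

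Between myeloid progenitors and HE, the response at chr8:67552315-67561235 (R) differed by 3.34 ± 0.664 (adjusted P = 0.00727). It was -2.87 in HE and 0.47 in myeloid progenitors, where the member was above background on 0 of 3 uninduced and 1 of 3 induced arrays. The member was detected in 3 of the 8 groups, uninduced HE among them, so this difference is not independent of its choice. At chr13:28947034-28949166 (R), detected in 2 of the 8 groups, the difference was 2.18 ± 0.428 (adjusted P = 0.00666), called at 1 of 2 probes. The response at chr1:135956616-135957485 (R) was lower in myeloid progenitors by a difference of -1.35 ± 0.331 (adjusted P = 0.0295), and that at chr12:32781477-32808567 (R) by one of -1.47 ± 0.354 (adjusted P = 0.0259).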

How the results depend on the processing

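The direction of the named changes reversed in 0 of 1054 recalculations, and 175 of these lost the call. Named changes had separate groups by choice, so leaving out an array or fitting only the groups compared could not reverse them. Fits within a slide could not either, except where the additional array stood for the uninduced progenitors. Other filters and thresholds left the values of a probe as they were. The count of 0 was thus in large part fixed in advance and is no evidence of stability for these settings. Of 58 named changes, 36 were called without each array in turn and 18 under every alternative. Both counts include chr12:110845020-110850870 (F) in progenitors and chr1:175653557-175671940 (R) from progenitors to myeloid progenitors. Detection where they were high made these 2 members, so their calls are no evidence of stability. With an adjusted P of at most 0.05 as the threshold, 40 members fell with Dox in HE2, 26 in progenitors and 397 from progenitors to myeloid progenitors, and 3 differed between HE2 and HE. With an offset of 50, 15 fell with Dox in HE2, 9 from HE to HE2 and 16 from HE2 to progenitors. With the deposited values, 9 and 16 fell in these steps. Scaling to the 75th percentile gave 44 higher and 2 lower with Dox in progenitors, 49 higher in myeloid progenitors, 10 higher and 14 lower from HE2 to progenitors, 100 lower from progenitors to myeloid progenitors and 21 that differed between myeloid progenitors and HE. It moved the median of all probes from -0.05 to -0.19 in progenitors with Dox and from -0.05 to -0.22 in myeloid progenitors.

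With the slide as a block, 1 fell with Dox in progenitors, and 107 rose and 46 fell from progenitors to myeloid progenitors (294 and 81 with the additional array). Fitting only the groups compared gave 21 higher and 5 lower in HE, 67 higher in HE2, 5 higher and 8 lower in progenitors, 16 higher and 5 lower from HE to HE2, 59 higher and 13 lower from HE2 to progenitors, and 273 lower from progenitors to myeloid progenitors. Within slide 1, 61 rose and 13 fell in HE2, 3 fell in progenitors, 3 fell from HE to HE2 and 6 rose from HE2 to progenitors. Within slide 2, 267 rose in HE, 34 rose and 12 fell in HE2, 54 rose and 9 fell from HE to HE2, and 77 rose and 6 fell from HE2 to progenitors. Within slide 3, 167 rose and 71 fell from progenitors to myeloid progenitors. The cause of these differences was not tested.

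Leaving out each array in turn gave with Dox 40 to 55 higher and 20 to 54 lower in HE, 76 to 167 and 14 to 32 in HE2, 28 to 146 and 3 to 206 in progenitors and 53 to 70 and 18 to 48 in myeloid progenitors. It gave 22 to 42 and 5 to 21 from HE to HE2, 6 to 153 and 10 to 31 from HE2 to progenitors and 282 to 486 and 110 to 238 from progenitors to myeloid progenitors. The interactions ran from 5 to 26 and from 25 to 45. A progenitor group left with 1 array was assumed to vary like the others.

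With the replicate number as a block, 52 rose and 40 fell in HE, 103 and 24 in HE2, 68 and 18 in progenitors and 72 and 31 in myeloid progenitors, and 26 and 18 changed from HE to HE2. Of 58 named changes, 4 lost the call under this block, at chr14:62294849-62301165 (R), chr8:41934312-41945487 (R), chr4:124206166-124334412 (R) and chr6:145647711-145756861 (F). Members near background are limited by signal.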
